A study of Mus musculus with 104 samples.

Results

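Liver cells sorted as STAB2-low were compared with cells sorted as STAB2-high across all genes of 1 table, using the 4 libraries of those sorts (2 each) out of 104 libraries in the series. The cells came from untreated C57BL/6J mice, and the file header names the libraries as wild-type, male and endothelial. Each sort has 2 libraries that share their numbers with the other sorts, called A (the lower number) and B here, and values are given in that order. Another sort of the same numbering, STAB2-intermediate (2 libraries), is given beside them as a middle value. Its libraries also entered the filter on low TPM and the shared estimate of spread behind the p-values. No age, gate or cell number is stated in the sources used here, and the labels do not say whether A and B were separate animals, so p-values measure the spread between these libraries only. The rest of the series follows monocytes and macrophages, largely around Kupffer cells, which are the liver's own macrophages and lie along the sinusoid wall.

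STAB2 (stabilin-2) is a scavenger receptor that takes up hyaluronan and other waste molecules from blood, and its gene is a classical mark of liver sinusoidal endothelial cells. Those cells line the sinusoids, the capillaries that run from the portal vein and hepatic artery at one end of the lobule to the central vein at the other. They are perforated, lack an organized basement membrane and are highly endocytic. The endothelium of the portal vessels, the arterioles and the central vein has a continuous wall and carries other genes, and the ends of the sinusoid also differ, with Wnt signals released near the central vein.

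The sort was checked on Stab2 itself, which is not a finding. Stab2 (chromosome 10, 86841210 to 87007942, - strand, mm10, the build of every position given) stood at 116 and 67.0 TPM in STAB2-low, 1419.5 and 1190.1 in STAB2-intermediate and 1713 and 1575 in STAB2-high. The STAB2-low mean was 5.57% of the STAB2-high mean (log2 difference -4.20 ± 0.25). TPM is the level per transcript length, scaled to the library, and log2 differences are STAB2-low minus STAB2-high on log2(TPM + 1) ± the limma standard error. On that scale the change of a gene at low TPM is understated.

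Before the results, what else differed or was looked at between the sorts is given. Of all tested genes 8.09% were called higher and 5.54% lower in STAB2-low, by the rule given in the next paragraph. Recovered reads were 18944276 and 14079780 in STAB2-low, 15845859 and 14117946 in STAB2-intermediate and 14394340 and 13920849 in STAB2-high libraries. The header gives both STAB2-low libraries the code 20180315 and the other 4 the code 20180211, so the low sort and that code cannot be told apart. Nor can closeness of STAB2-intermediate to STAB2-high be told apart from their shared code. Of 14 immediate-early and dissociation stress genes 7 were higher in STAB2-low and 0 lower, beside 8.09% and 5.54% of all genes. Their summed TPM was 1978 and 2618 TPM in STAB2-low, 799.9 and 1396 in STAB2-intermediate and 444 and 784 in STAB2-high. Hepatocyte transcripts went the other way, with 7 of 14 lower beside 5.54% of all genes, 3 tested but not called and 4 under the filter. They summed to 53.7 and 80.3 TPM in STAB2-low, 127 and 237 in STAB2-intermediate and 237 and 257 in STAB2-high. The lower calls in this list numbered 2 without STAB2-low A, 6 without STAB2-low B, 3 without STAB2-high A, 3 without STAB2-high B, 4 with no filter on low TPM and 9 with limma-voom. Alb, the albumin gene, stood at 26.9 and 30.8 TPM in STAB2-low, 68.0 and 121 in STAB2-intermediate and 125 and 142 in STAB2-high. Of 6 portal hepatocyte genes Ass1 was higher (7.79 and 8.74 TPM in STAB2-low against 1.30 and 0.938 in STAB2-high), and of 6 central ones Cyp2e1 was lower (0.988 and 1.70 TPM in STAB2-low against 7.16 and 5.46 in STAB2-high), a call lost without STAB2-high A (adjusted p = 0.066). Of 16 Kupffer cell markers 12 were tested and 1 was lower, a share not far above the 5.54% of all genes. That gene was the iron exporter Slc40a1 (29.7 and 20.4 TPM in STAB2-low against 196 and 136 in STAB2-high). The 15 others summed to 160.9 and 156 TPM in STAB2-low against 234 and 198 TPM in STAB2-high libraries. Lck was the 1 lymphocyte gene lower (1.87 and 0.913 TPM in STAB2-low against 7.92 and 7.86 in STAB2-high). Lymphocyte markers summed to 2.31 and 4.37 TPM in STAB2-low, 9.22 and 7.58 in STAB2-intermediate and 13.8 and 12.9 in STAB2-high, those of bile duct and mesothelium to 0.451 and 0.150 TPM in STAB2-low, 3.37 and 2.18 in STAB2-intermediate and 1.88 and 1.19 in STAB2-high and those of erythroid cells and platelets to 8.75 and 6.87 TPM in STAB2-low, 18.4 and 12.9 in STAB2-intermediate and 9.88 and 10.5 in STAB2-high. The defining genes Krt19, Krt7, Epcam and Wt1 were at 0 in the 4 STAB2-low and STAB2-high libraries, as were the neutrophil genes S100a8 and Retnlg, while the T cell gene Cd3e stayed under 2 TPM. In the list of stellate cells, fibroblasts and smooth muscle, Ecm1 was higher (285 and 294 TPM in STAB2-low against 117 and 131 in STAB2-high), and the other 14 genes summed to 20.8 and 33.1 TPM in STAB2-low against 30.9 and 62.8 TPM in STAB2-high libraries. The myeloid list had Plac8 higher (177 and 274 TPM in STAB2-low against 6.09 and 20.9 in STAB2-high) and Clec9a lower (28.3 and 38.5 TPM in STAB2-low against 98.3 and 129 in STAB2-high). Whether any of these had a part in the results below was not tested. In sorted bulk RNA, fewer cells of a type and less RNA per cell cannot be told apart.

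The difference between the sorts was wide. Of 10576 genes tested (at least 4 TPM in 2 or more of the 6 libraries, out of 24940), 1442 were called, with 856 higher and 586 lower in STAB2-low. A gene was called where its change reached 2-fold and its p, adjusted by Benjamini-Hochberg, was below 0.05. That is a background of 13.6% of genes called, 8.09% higher and 5.54% lower, against which the lists are read. The called differences that were higher also reached further, to log2 9.16, with 102 genes at 16-fold or more, against 8 such genes on the lower side. Called genes within 0.1 log2 of the 2-fold limit numbered 122, and 1699 genes had an adjusted p below 0.05 at under 2-fold. The median log2 difference of all tested genes was 0.08, and quantile normalization moved it to -0.04. The first principal component held 72.7% of the variance and placed the STAB2-low libraries at -57.4 and -64.5, STAB2-intermediate at 25.9 and 15.4, and STAB2-high at 42.4 and 38.1.

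**Figure D1:**
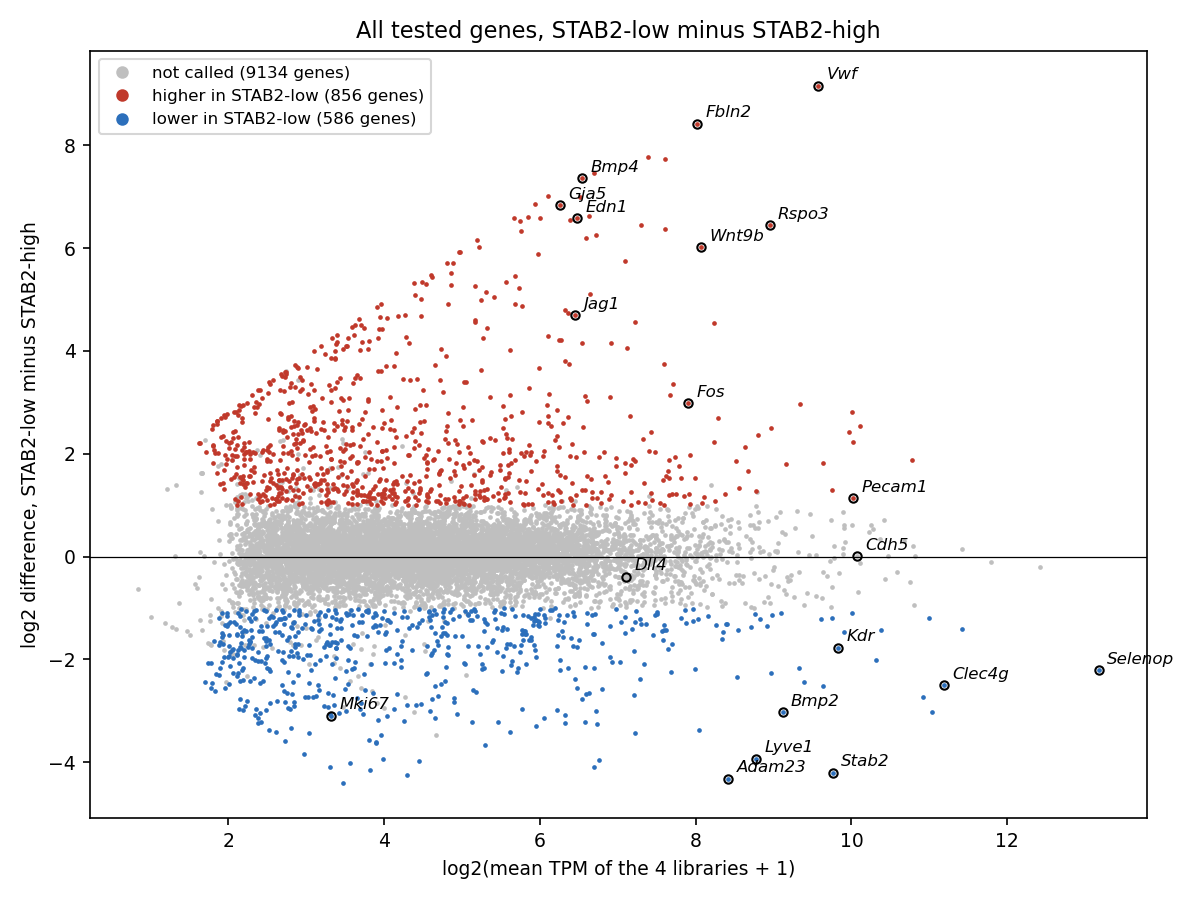
Log2 difference of each tested gene (STAB2-low minus STAB2-high, vertical axis) against log2 of its mean TPM over the 4 libraries plus 1 (horizontal axis). Red and blue points are the 856 genes called higher and the 586 called lower in STAB2-low, gray points those not called, and circled genes are named in the text. The cloud reaches much further up, to Vwf, than down.

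Among the 12 genes named as higher, Vwf, Fbln2 and Eln had the largest differences on log2(TPM + 1), a scale that places them above genes with larger plain ratios such as Cyp1a1 and Fndc1. Vwf (chromosome 6, 125552948 to 125686679, + strand), the clotting factor that endothelium stores for release on injury, stood at 1608 and 1436 TPM in STAB2-low, 19.0 and 70.0 in STAB2-intermediate and 1.02 and 2.49 in STAB2-high (log2 9.16 ± 0.56, adjusted p = 0.00014). Fbln2, a matrix protein that binds elastic fibers, had 521 and 513 TPM in STAB2-low, 13.8 and 41.3 in STAB2-intermediate and 0.432 and 0.593 in STAB2-high (log2 8.42 ± 0.43, adjusted p = 8.4e-05). Eln, the elastin gene, had 303 and 359 TPM in STAB2-low, 2.35 and 10.7 in STAB2-intermediate and 0.856 and 0.244 in STAB2-high (log2 7.77 ± 0.54, adjusted p = 0.00022). In all 3 the sorts did not overlap, STAB2-high stayed under 3 TPM, and STAB2-intermediate B lay above A.

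Further enzymes and surface proteins followed. Fmo2, a flavin monooxygenase, stood at 481.2 and 294 TPM in STAB2-low, 1.49 and 0.889 in STAB2-intermediate and 0.625 and 0.937 in STAB2-high (log2 7.73 ± 0.28, adjusted p = 4.4e-05). Cyp1a1, the xenobiotic-metabolizing cytochrome, had 112 and 297 TPM in STAB2-low, 3.39 and 29.5 in STAB2-intermediate and 0 and 0.0890 in STAB2-high, or 9876 reads against 2 in all, a ratio per read total of 4230 with a 95% counting interval of 1170 to 35000. Its log2 difference was 7.46 ± 0.87 (adjusted p = 0.0014), and the call was lost with limma-voom on recovered reads (log2 11.81, adjusted p = 0.21). Cd200, a ligand that restrains myeloid cells through its receptor, had 132 and 138 TPM in STAB2-low, 2.84 and 3.28 in STAB2-intermediate and 0.103 and 0 in STAB2-high, with 5995 reads against 2, a ratio of 2570 (711 to 21200). For these genes the STAB2-high libraries were close to nothing, and the counting intervals cover counting error only.

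Bmp4 and Gja5 also stood among the 12, and both are described with their groups below. Sdc1, a heparan sulfate proteoglycan, stood at 130.5 and 229.7 TPM in STAB2-low, 6.98 and 30.9 in STAB2-intermediate and 0.229 and 0.534 in STAB2-high (log2 6.99 ± 0.62, adjusted p = 0.00047). Fndc1, which holds fibronectin type III domains, had 123 and 117 TPM in STAB2-low, 0 and 0.274 in STAB2-intermediate and 0 and 0.0800 in STAB2-high (log2 6.86 ± 0.24, adjusted p = 4.1e-05). Fstl1, a secreted glycoprotein, had 189.9 and 201 TPM in STAB2-low, 1.87 and 6.81 in STAB2-intermediate and 0.356 and 1.88 in STAB2-high, and Col6a3, a chain of collagen VI, 123 and 103 TPM in STAB2-low, 0.272 and 0.419 in STAB2-intermediate and 0.195 and 0.143 in STAB2-high. The low and high sorts did not overlap in these 12 genes, which the naming rule required. In linear TPM STAB2-intermediate lay nearer to STAB2-high in all 12, but not on the log2 scale in library B of Vwf, Fbln2, Cyp1a1, Sdc1 and Gja5.

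Among the 12 genes named as lower, Adam23 had the largest difference on log2(TPM + 1), though others kept a smaller share of their STAB2-high TPM. Adam23 (chromosome 1, 63445891 to 63596101, + strand), a catalytically inactive ADAM family membrane protein, stood at 32.2 and 31.1 TPM in STAB2-low, 584 and 600.4 in STAB2-intermediate and 655 and 647 in STAB2-high (log2 -4.32 ± 0.08, adjusted p = 7.3e-06). Wisp1, a secreted CCN family protein, had 1.20 and 0.749 TPM in STAB2-low, 23.1 and 21.2 in STAB2-intermediate and 41.7 and 31.1 in STAB2-high (log2 -4.24 ± 0.21, adjusted p = 7.9e-05), and Flrt1, a leucine-rich repeat membrane protein, 0.567 and 0.401 TPM in STAB2-low, 22.6 and 14.9 in STAB2-intermediate and 29.0 and 22.3 in STAB2-high. Aass, the first enzyme of lysine breakdown, stood at 14.1 and 9.97 TPM in STAB2-low, 184 and 137 in STAB2-intermediate and 231 and 173 in STAB2-high (log2 -3.96 ± 0.22, adjusted p = 0.00011). In these 4 genes STAB2-intermediate lay nearer to STAB2-high than to STAB2-low.

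Other genes among the 12 most reduced stood under 5 TPM in both STAB2-low libraries. Tiam1, an activator of Rac, had 0.537 and 1.41 TPM in STAB2-low against 24.2 and 33.0 in STAB2-high. Rnd3, an atypical small GTPase, had 4.45 and 4.96 TPM in STAB2-low against 72.3 and 70.8 in STAB2-high (log2 -3.67 ± 0.14, adjusted p = 5.1e-05). Plxdc1, a plexin-domain membrane protein, stood at 1.06 and 1.43 TPM in STAB2-low against 26.5 and 26.4 in STAB2-high, and Abcc9, a regulatory subunit of potassium channels that sense ATP, at 0.776 and 1.79 TPM in STAB2-low against 31.2 and 21.7 in STAB2-high. Scgb3a1, a small secreted protein, had lower middle values, with 0.887 and 0 TPM in STAB2-low, 4.70 and 5.63 in STAB2-intermediate and 22.6 and 19.8 in STAB2-high, so that STAB2-intermediate stood well under STAB2-high. Stab2 itself, Cd209b and Lyve1 complete the 12.

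**Figure D2:**
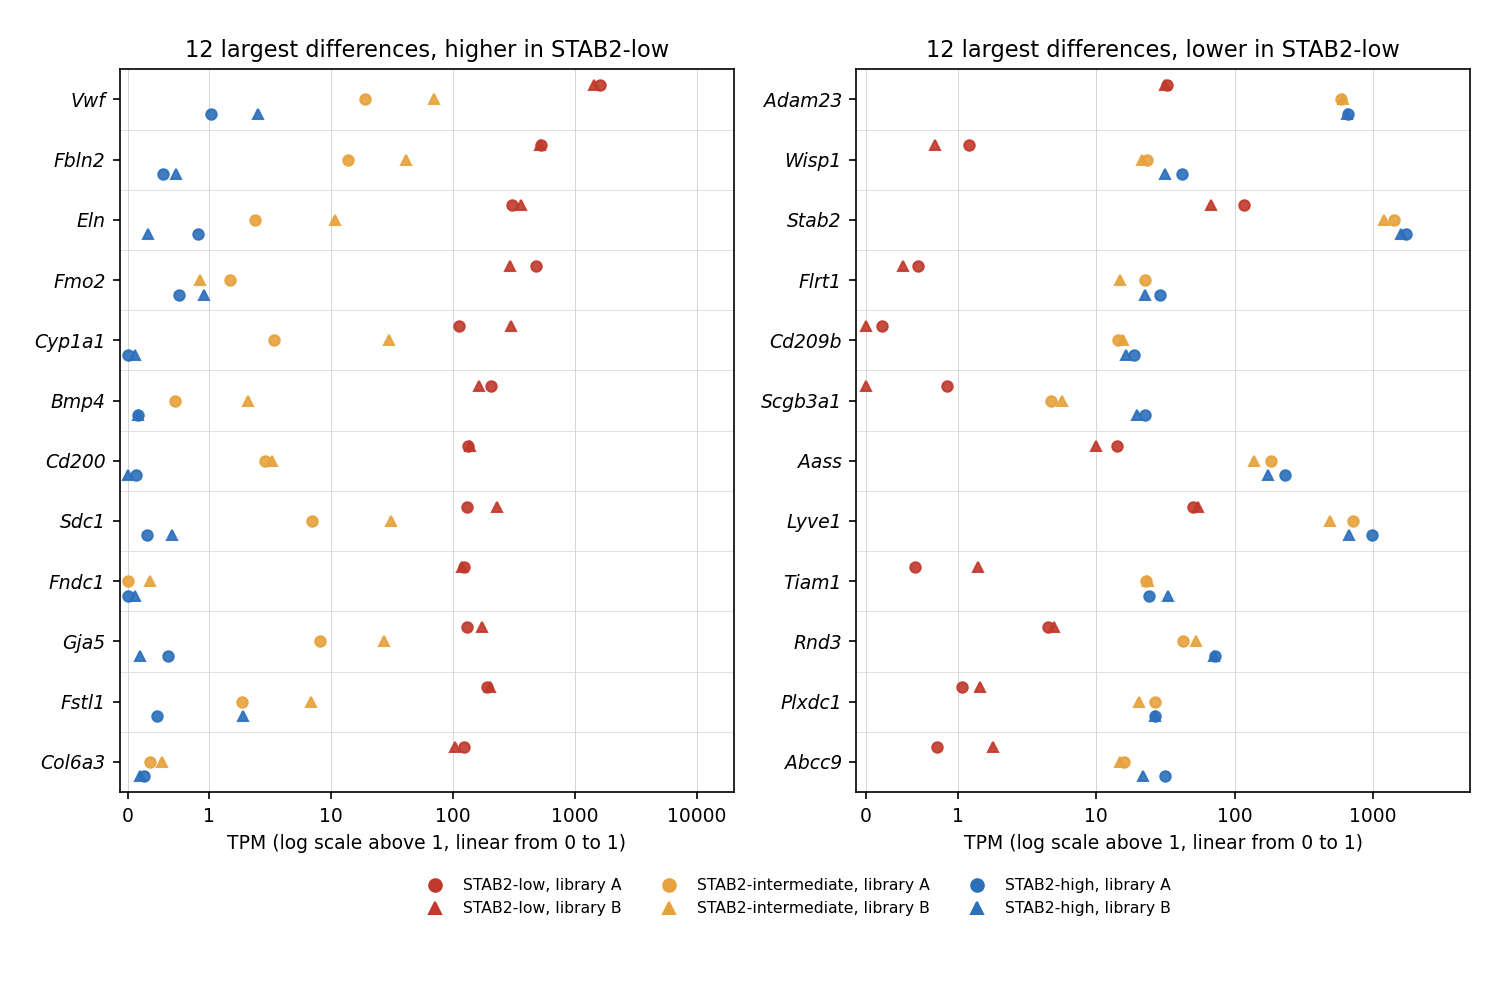
TPM in each of the 6 libraries (horizontal axis, logarithmic above 1 TPM and linear from 0 to 1) for the 12 genes with the largest log2 difference in each direction. Circles are libraries A and triangles libraries B, in red for STAB2-low, orange for STAB2-intermediate and blue for STAB2-high. Among the higher genes STAB2-intermediate mostly lies between the other sorts, and among the lower genes it lies nearer to STAB2-high.

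The most abundant transcripts changed as well. Selenop, which encodes the secreted selenium carrier, was the top transcript of STAB2-high and fell in STAB2-low, with 3667 and 2976 TPM in STAB2-low, 13924 and 13185 in STAB2-intermediate and 15233 and 15148 in STAB2-high (log2 -2.20 ± 0.16, adjusted p = 0.00026). Igfbp7, a secreted binding protein of vessels, fell too (1547 and 1458 TPM in STAB2-low against 3721 and 4271 in STAB2-high, log2 -1.41 ± 0.13, adjusted p = 0.00055). B2m, Aqp1, Eng, Ptprb and Itm2b were among the top 8 of STAB2-low and were not called, with B2m at 4819.6 and 5369 TPM in STAB2-low against 5466 and 6212 in STAB2-high and the water channel gene Aqp1 at 2953 and 3913 TPM in STAB2-low against 3864 and 3449 in STAB2-high. Under quantile normalization B2m had a log2 difference of 1.00 (adjusted p = 0.0015) in place of -0.20 ± 0.14. Bgn, which encodes the matrix proteoglycan biglycan, rose to 2862 and 2655 TPM in STAB2-low against 740.3 and 762 in STAB2-high (log2 1.87 ± 0.11, adjusted p = 0.00011), and Ly6a, an anchored surface protein, to 1463 and 2337 TPM in STAB2-low against 283 and 354 in STAB2-high (log2 2.54 ± 0.36, adjusted p = 0.0028).

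Sinusoidal endothelial genes were reduced as a group. Of the 15 listed (Stab2 left out), all were tested, 13 were lower in STAB2-low and 0 higher, beside 5.54% of all genes lower, and the median log2 difference was -2.51 beside 0.08 for all tested genes. Cd209b, a lectin of the DC-SIGN family, stood at 0.176 and 0 TPM in STAB2-low, 14.4 and 15.5 in STAB2-intermediate and 18.8 and 16.5 in STAB2-high (log2 -4.10 ± 0.20, adjusted p = 8.1e-05). Lyve1, a hyaluronan receptor, had 49.8 and 54.6 TPM in STAB2-low, 718 and 484 in STAB2-intermediate and 979 and 667 in STAB2-high (log2 -3.93 ± 0.24, adjusted p = 0.00013). Clec1b, the receptor CLEC-2, had 19.3 and 16.0 TPM in STAB2-low, 191 and 162 in STAB2-intermediate and 165 and 179.6 in STAB2-high (log2 -3.22 ± 0.13, adjusted p = 6.4e-05).

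The reduction was uneven. As a share of the STAB2-high mean, the STAB2-low mean was 0.500% for Cd209b, 6.34% for Lyve1 and 10.2% for Clec1b. It was 12.3% for Bmp2, 12.3% for Fcgr2b (an inhibitory Fc receptor), 15.2% for Dnase1l3 (a secreted nuclease), 17.6% for Mrc1 (the mannose receptor) and 17.6% for Clec4g (the lectin LSECtin). Larger shares stood at 20.8% for Flt4 (the VEGF-C receptor), 24.8% for Oit3, 36.9% for Gpr182, 43.9% for Ehd3 and 44.0% for Stab1, the paralog of the sort gene. Ehd3, an endocytic trafficking protein, was at a log2 difference of -0.997 under quantile normalization, just short of the 2-fold limit. The coagulation factor gene F8 stood at 389 and 307 TPM in STAB2-low against 694 and 596 in STAB2-high and was not called (log2 -0.89 ± 0.14), but was called without STAB2-low A (-1.06) or STAB2-high B (-1.004). Gata4, which encodes a transcription factor needed for sinusoidal identity in mice, was not called, at 417 and 311 TPM in STAB2-low against 275 and 204 in STAB2-high (log2 0.60 ± 0.24, adjusted p = 0.11).

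Clec4g was the fourth most abundant transcript of STAB2-high, with 747 and 655 TPM in STAB2-low, 4239 and 3638 in STAB2-intermediate and 3929 and 4014 in STAB2-high (log2 -2.50 ± 0.13, adjusted p = 8.8e-05). Its promoter is shown because it drives one of the most abundant transcripts that fell. It is given from RefSeq (GRCm38.p6, the assembly of mm10, chr8:3720602-3720901, - strand), from 250 bases before to 50 after the start site, which is the transcript start in the authors' table.
Clec4g: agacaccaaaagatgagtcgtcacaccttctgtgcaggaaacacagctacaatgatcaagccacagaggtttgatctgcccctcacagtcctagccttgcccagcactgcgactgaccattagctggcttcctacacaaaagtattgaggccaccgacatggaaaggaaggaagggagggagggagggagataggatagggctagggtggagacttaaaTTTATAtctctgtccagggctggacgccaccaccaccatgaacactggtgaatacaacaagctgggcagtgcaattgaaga
The capitals mark a TATAAA match, read on the opposite strand, whose first base lies 31 bases before the start site. TATAAA was searched on both strands and was present in 12.9% of all 18095 promoters matched by symbol, in 8.9% of 632 promoters of genes higher in STAB2-low and in 12.6% of 429 of genes lower. A match is a description of these letters and not a shown site.

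Genes shared by all endothelium were present in all 3 sorts. Of 15 listed and tested, 1 was higher, 1 lower and 13 not called, a share near the 13.6% of all genes called. Yet 8 of the 15 had an adjusted p below 0.05, and the median log2 difference was 0.20. Cdh5, the junction cadherin of vessels, stood at 1146 and 1018 TPM in STAB2-low, 1062 and 1001 in STAB2-intermediate and 1145 and 1009 in STAB2-high (log2 0.01 ± 0.12). Pecam1, the platelet-endothelial adhesion molecule, rose to 1463 and 1403 TPM in STAB2-low against 688 and 614 in STAB2-high (log2 1.14 ± 0.10, adjusted p = 0.00047). Kdr, the main VEGF receptor, fell to 446 and 377 TPM in STAB2-low against 1555 and 1261 in STAB2-high (log2 -1.77 ± 0.17, adjusted p = 0.00059). The angiopoietin receptor gene Tek had 698 and 619.9 TPM in STAB2-low against 418 and 354 in STAB2-high (log2 0.77 ± 0.12) and the guidance receptor gene Robo4 349 and 315 TPM in STAB2-low against 617 and 600.0 in STAB2-high (log2 -0.87 ± 0.09), and both were under the 2-fold limit.

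**Figure D3:**
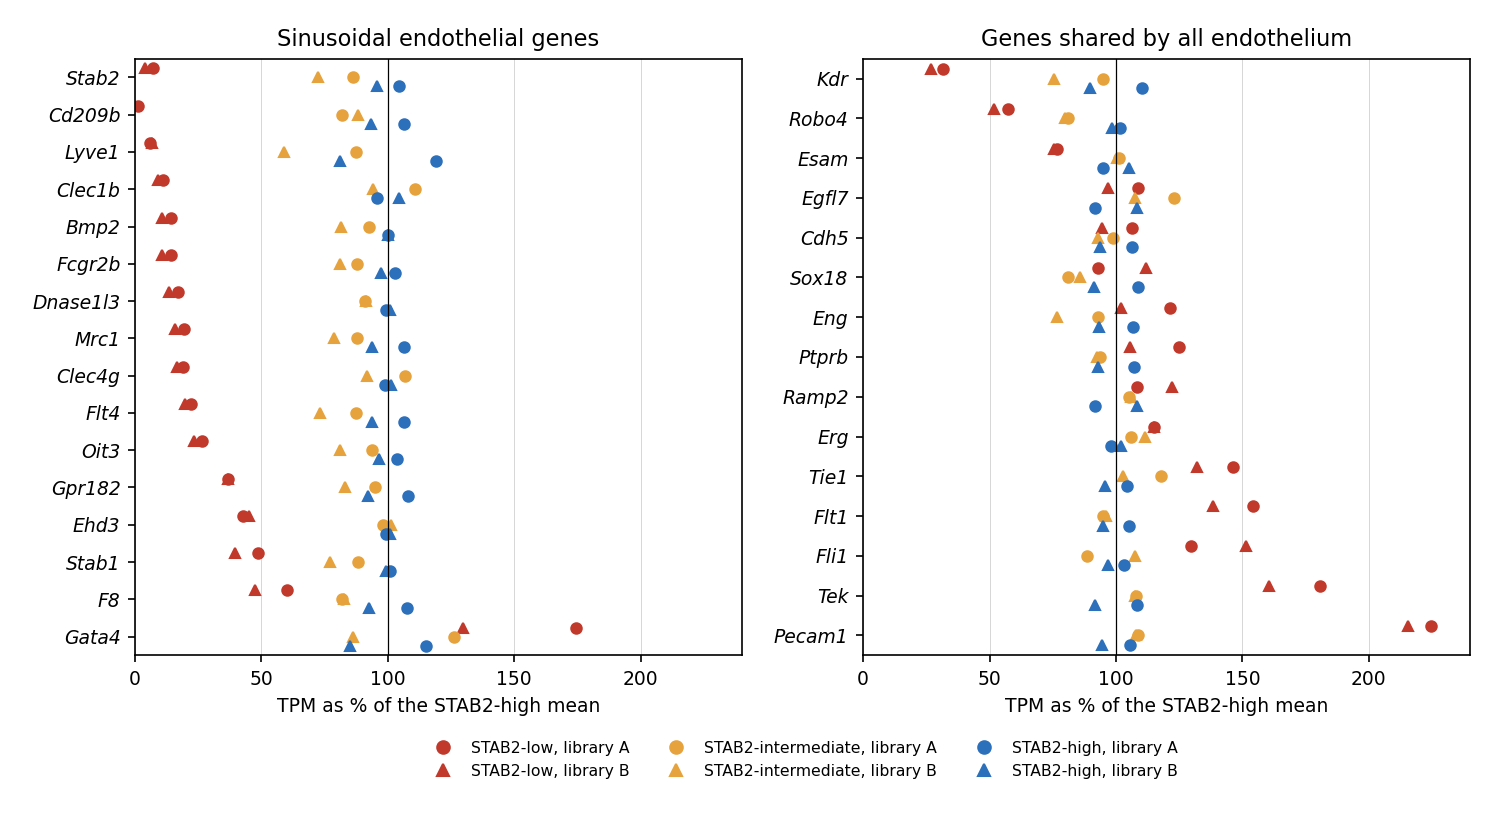
TPM of each library as a percentage of the STAB2-high mean (horizontal axis) for Stab2 and the 15 sinusoidal genes, left, and the 15 genes shared by all endothelium, right. Circles are libraries A and triangles libraries B, with sorts colored as in the key. STAB2-low lies under 50% for Stab2 and the 13 called sinusoidal genes, while the shared genes lie on either side of 100%.

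Endocytic and scavenger receptor genes were lower in 10 of 17, with 15 tested and 1 higher, beside 5.54% and 8.09% of all genes. The list shares 6 members with the sinusoidal list, and those 6 are all among the 10 lower. Outside the sinusoidal list, Colec12, a scavenger collectin, stood at 0.461 and 0.426 TPM in STAB2-low against 5.70 and 6.75 in STAB2-high (log2 -2.32 ± 0.26, adjusted p = 0.0011). Msr1, the class A scavenger receptor, had 96.9 and 122 TPM in STAB2-low against 291 and 259 in STAB2-high (log2 -1.33 ± 0.14, adjusted p = 0.00089), and Dab2, an adaptor for clathrin-borne receptors, 196 and 192 TPM in STAB2-low against 492 and 475 in STAB2-high (log2 -1.31 ± 0.08, adjusted p = 0.00015). Scarb1, the HDL receptor, was not called, at 155 and 166 TPM in STAB2-low against 175 and 167 in STAB2-high. Marco and Lrp1 were under the filter.

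Among 23 endothelial transcription factor genes, 20 were tested, 3 were higher and 1 lower. Maf, a factor of sinusoidal endothelium, fell to 249.7 and 216 TPM in STAB2-low against 1080.0 and 1021 in STAB2-high (log2 -2.17 ± 0.11, adjusted p = 8.4e-05). Gata6 stood at 7.44 and 5.35 TPM in STAB2-low against 0.0730 and 0 in STAB2-high, or 409 reads against 2, a ratio of 175 (48.2 to 1450), and was called higher (log2 2.82 ± 0.36, adjusted p = 0.002). Klf4, a factor of vessels under laminar flow, had 103 and 123 TPM in STAB2-low against 25.2 and 41.9 in STAB2-high (log2 1.76 ± 0.29, adjusted p = 0.005), and Foxc1, an angiogenic and arterial factor, 21.1 and 15.6 TPM in STAB2-low against 3.86 and 2.74 in STAB2-high (log2 2.17 ± 0.24, adjusted p = 0.0011). The share called, 4 of 20, is not far above the 13.6% of all genes. Erg, which maintains endothelial identity, stood at 173 and 173 TPM in STAB2-low against 147 and 153.4 in STAB2-high, and the venous factor gene Nr2f2 at 313 and 314 TPM in STAB2-low against 245 and 219 in STAB2-high.

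Large-vessel and continuous-capillary genes mostly rose. Of 17 listed and tested, 12 were higher and 0 lower, beside 8.09% of all genes higher, with a median log2 difference of 2.40 (2.40 also with Mgp at its bound). After Vwf, Fbln2 and Eln, the next largest log2 difference was that of Edn1, given with vascular tone. Mgp, an inhibitor of calcification in vessel walls, stood at 51.8 and 69.6 TPM in STAB2-low, 0 and 0.746 in STAB2-intermediate and 0 and 0 in STAB2-high, and its 0 reads in STAB2-high make it at least 106.2-fold higher in STAB2-low, counting 3 reads per library as the floor. Sele, the leukocyte-capturing E-selectin, had 53.8 and 81.2 TPM in STAB2-low, 2.32 and 7.99 in STAB2-intermediate and 1.01 and 3.01 in STAB2-high (log2 4.56 ± 0.53, adjusted p = 0.0013). Plvap, which forms the diaphragms of capillary openings, had 1876 and 1709.7 TPM in STAB2-low, 364 and 420.0 in STAB2-intermediate and 226 and 286 in STAB2-high (log2 2.81 ± 0.14, adjusted p = 8.4e-05), and Ly6c1 49.0 and 102 TPM in STAB2-low, 9.02 and 24.7 in STAB2-intermediate and 1.90 and 2.71 in STAB2-high (log2 4.45 ± 0.50, adjusted p = 0.0012). The mucin gene Emcn (329 and 286 TPM in STAB2-low against 232 and 237 in STAB2-high) and the junction gene Cldn5 (111 and 135 TPM in STAB2-low against 224 and 174 in STAB2-high) were not called. Ackr1 pointed lower, at 21.1 and 15.5 TPM in STAB2-low against 68.7 and 23.2 in STAB2-high. It was not called (log2 -1.10 ± 0.56, adjusted p = 0.19), but the list had 1 gene lower with the replicate block.

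Central vein genes were also higher in STAB2-low. Of 10 listed, 9 were tested, and 6 were higher and 1 lower, beside 8.09% and 5.54% of all genes. The median log2 difference was 2.69. Rspo3 (chromosome 10, 29453107 to 29535867, - strand), the R-spondin that strengthens Wnt signals to pericentral hepatocytes, stood at 1064 and 888 TPM in STAB2-low, 27.5 and 57.9 in STAB2-intermediate and 5.75 and 17.5 in STAB2-high (log2 6.44 ± 0.51, adjusted p = 0.00032). Wnt9b, a Wnt ligand of the central vein, had 589 and 470.3 TPM in STAB2-low, 20.2 and 25.4 in STAB2-intermediate and 4.88 and 10.3 in STAB2-high (log2 6.01 ± 0.30, adjusted p = 8.4e-05). Selp, the P-selectin gene, had 283 and 251 TPM in STAB2-low against 2.11 and 7.04 in STAB2-high (log2 5.74 ± 0.46, adjusted p = 0.00033), and Lhx6, a homeobox factor, 282 and 242 TPM in STAB2-low against 11.5 and 18.6 in STAB2-high (log2 4.07 ± 0.22, adjusted p = 0.0001). Wnt2, the Wnt ligand of central sinusoids, was not called at 328 and 269.7 TPM in STAB2-low, 215 and 178 in STAB2-intermediate and 154 and 175 in STAB2-high (log2 0.85 ± 0.14, adjusted p = 0.0057). Kit, a receptor kinase of central sinusoids, was not called either at 174 and 111 TPM in STAB2-low against 229 and 259.8 in STAB2-high (log2 -0.81 ± 0.21), but was called lower without STAB2-low A (-1.13, adjusted p = 0.0083). Plxnc1 was the 1 gene of the list that fell (140.0 and 102 TPM in STAB2-low against 644 and 586 in STAB2-high, log2 -2.35 ± 0.17, adjusted p = 0.00022).

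Periportal and arterial genes were mostly higher as well. Of 15 listed, 14 were tested, and 8 were higher and 1 lower, beside 8.09% and 5.54% of all genes. The median log2 difference was 1.45. Gja5 (chromosome 3, 97032402 to 97053634, + strand), connexin 40 of arterial endothelium, stood at 129 and 172 TPM in STAB2-low, 8.13 and 27.3 in STAB2-intermediate and 0.486 and 0.149 in STAB2-high (log2 6.84 ± 0.49, adjusted p = 0.00024). Adgrg6, an adhesion G protein-coupled receptor, had 182 and 204 TPM in STAB2-low, 22.6 and 58.5 in STAB2-intermediate and 3.90 and 5.46 in STAB2-high (log2 5.10 ± 0.40, adjusted p = 0.00031). Bmx, a kinase of arterial endothelium, had 30.3 and 28.1 TPM in STAB2-low against 0 and 0 in STAB2-high, at least 249.6-fold higher against the floor of 3 reads per library, and Sema3g, a semaphorin of arteries, 7.04 and 12.2 TPM in STAB2-low against 0 and 0 in STAB2-high, at least 101-fold higher. The Notch ligand gene Dll4 and the factor gene Sox17 (81.1 and 104 TPM in STAB2-low against 75.9 and 83.3 in STAB2-high) were not called. Genes listed for the central vein and genes listed for arteries were thus higher in the same 2 libraries. The 1 gene of the list that fell was the scavenger receptor gene Msr1, given above.

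Lymphatic genes gave no common pattern. Of 7 listed, 5 were under the filter, among them the master regulator Prox1 (0.940 and 1.16 TPM in STAB2-low against 1.84 and 1.00 in STAB2-high) and Pdpn, which was at 0 in those 4 libraries. Nts (17.9 and 8.30 TPM in STAB2-low against 0 and 0.496 in STAB2-high) and Sema3d (76.6 and 63.1 TPM in STAB2-low against 11.5 and 16.0 in STAB2-high) were higher. That is 2 of 2 tested, beside 8.09% of all genes.

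**Figure D4:**
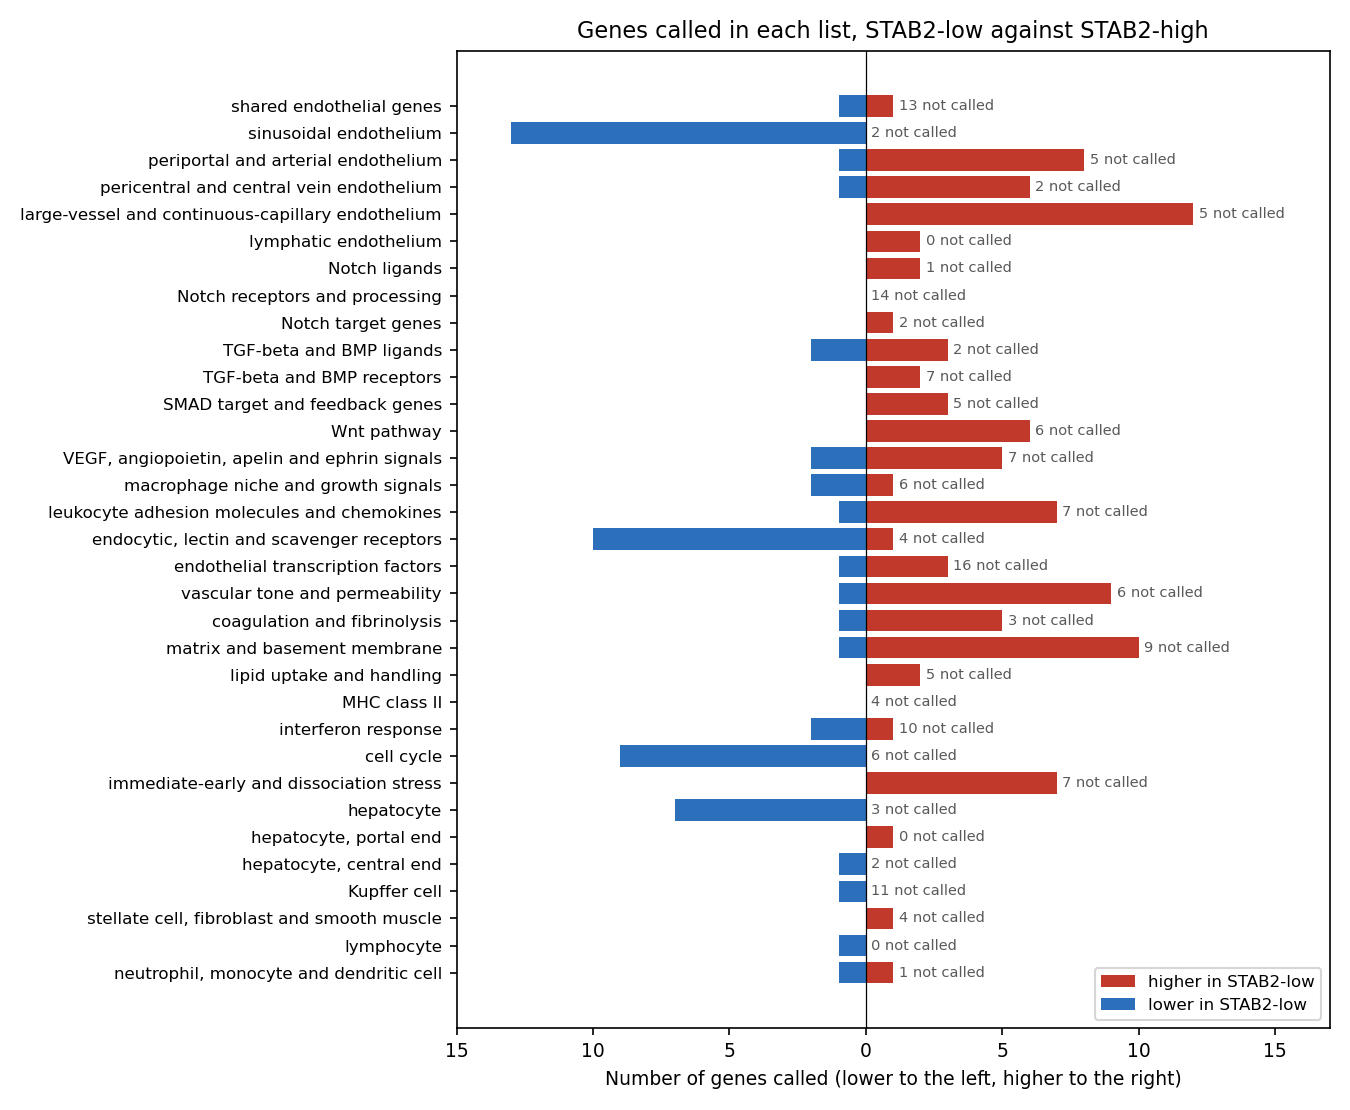
Number of genes called in each list with tested members, to the right (red) for higher and to the left (blue) for lower in STAB2-low, with the number tested but not called in gray. The sinusoidal list (13 lower), the endocytic receptors (10 lower, some also in the sinusoidal list) and the cell cycle list (9 lower) point left. The large-vessel list (12 higher) and the matrix list (10 higher) point right.

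The Notch pathway, in which ligands on one cell trigger cleavage of receptors on its neighbor and so release a nuclear fragment that acts with RBPJ, bears on the series because DLL4 and TGF-beta were given to myeloid cells elsewhere in it. Of 5 ligand genes 3 were tested and 2 were higher, beside 8.09% of all genes. Jag1 stood at 152 and 183 TPM in STAB2-low, 19.9 and 44.9 in STAB2-intermediate and 4.99 and 5.96 in STAB2-high (log2 4.70 ± 0.34, adjusted p = 0.00025), and Dll1 had 76.3 and 58.2 TPM in STAB2-low, 19.1 and 16.4 in STAB2-intermediate and 14.0 and 11.7 in STAB2-high (log2 2.30 ± 0.17, adjusted p = 0.00028). Dll4 was not called, at 111 and 126 TPM in STAB2-low, 158.96 and 148 in STAB2-intermediate and 178 and 134 in STAB2-high (log2 -0.39 ± 0.15, adjusted p = 0.1). Jag2 (1.40 and 2.89 TPM in STAB2-low against 0.289 and 0.723 in STAB2-high) and Dll3 (0 and 0 TPM in STAB2-low against 0.487 and 0 in STAB2-high) were under the filter. By level in TPM, Dll4 came first of the ligands in STAB2-high, whereas Jag1 lay above Dll4 in STAB2-low.

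None of the 16 Notch receptor and processing genes was called, with 14 tested, beside 13.6% of all genes. That count of 0 is from limma with the 2-fold limit, and 5 of the 14 had an adjusted p below 0.05 at under 2-fold, 7 had an unadjusted p below 0.05, and limma-voom on recovered reads also called 0. Notch1 had 269.7 and 251 TPM in STAB2-low against 139.6 and 132 in STAB2-high (log2 0.93 ± 0.09, adjusted p = 0.00058) and Notch4 60.4 and 73.4 TPM in STAB2-low against 97.8 and 96.5 in STAB2-high (log2 -0.54 ± 0.11). Lfng, a fringe sugar transferase that tunes receptor choice, had 92.0 and 109.5 TPM in STAB2-low against 46.6 and 55.1 in STAB2-high (log2 0.97 ± 0.14) and was called without STAB2-low A (1.10) or STAB2-high B (1.09). Psenen, a subunit of gamma-secretase, had 6.27 and 4.38 TPM in STAB2-low against 1.45 and 1.99 in STAB2-high (log2 1.21 ± 0.46, adjusted p = 0.096) and was called without either STAB2-intermediate library (adjusted p = 0.045 and 0.036) or without both (0.05). The gamma-secretase genes Psen2, Ncstn and Aph1a had log2 differences of 0.05, 0.08 and -0.03. The receptor proteases Adam10 and Adam17, the ligand ubiquitin ligase Mib1, the fringes Mfng and Rfng and the nuclear partner Rbpj had 0.43, 0.29, 0.19, -0.03, 0.37 and 0.26. Notch2 and Notch3 were under the filter.

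Of 6 Notch target genes 3 were tested and 1 was higher, beside 8.09% of all genes. Hey1 was called higher at 6.69 and 8.76 TPM in STAB2-low, 1.53 and 2.80 in STAB2-intermediate and 2.28 and 1.38 in STAB2-high (log2 1.63 ± 0.33, adjusted p = 0.012), and the call was lost without STAB2-low B (log2 1.46, adjusted p = 0.066) or STAB2-high B (1.40, 0.055). Hes1 pointed the other way without being called, at 30.7 and 39.0 TPM in STAB2-low, 36.3 and 43.7 in STAB2-intermediate and 59.3 and 58.7 in STAB2-high (log2 -0.75 ± 0.15, adjusted p = 0.011). Nrarp had 74.3 and 82.1 TPM in STAB2-low against 76.1 and 61.5 in STAB2-high (log2 0.19 ± 0.13), and Hes5, Hey2 and Heyl were under the filter.

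TGF-beta and BMP ligand genes changed in both directions. Of 9, 7 were tested, 3 were higher and 2 lower, beside 8.09% and 5.54% of all genes. Bmp4 (chromosome 14, 46383525 to 46390669, - strand) stood at 206 and 163 TPM in STAB2-low, 0.581 and 2.07 in STAB2-intermediate and 0.121 and 0.121 in STAB2-high (log2 7.36 ± 0.33, adjusted p = 7.0e-05), and Tgfb2 had 60.7 and 53.7 TPM in STAB2-low, 0.279 and 1.14 in STAB2-intermediate and 0.0460 and 0.160 in STAB2-high (log2 5.72 ± 0.31, adjusted p = 9.9e-05). Bmp2 fell, with 139 and 104 TPM in STAB2-low, 912 and 804 in STAB2-intermediate and 985 and 987 in STAB2-high (log2 -3.03 ± 0.15, adjusted p = 7.9e-05), and so did Bmp6, the signal by which liver endothelium sets hepcidin in hepatocytes, with 49.8 and 55.2 TPM in STAB2-low, 141 and 133 in STAB2-intermediate and 152.6 and 149.7 in STAB2-high (log2 -1.51 ± 0.09, adjusted p = 0.00015). The BMP genes thus ran in opposite directions, with Bmp2 and Bmp6 higher in STAB2-high and Bmp4 under 1 TPM there. Tgfb3, the third gene called higher (4.30 and 4.66 TPM in STAB2-low against 1.21 and 1.17 in STAB2-high, log2 1.32 ± 0.29, adjusted p = 0.017), lost its call under quantile normalization (0.95) and without STAB2-low B or either STAB2-high library (adjusted p = 0.058 in each). Tgfb1 was not called, at 226 and 214 TPM in STAB2-low against 289.8 and 279 in STAB2-high (log2 -0.37 ± 0.11, adjusted p = 0.046).

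Receptors and feedback genes of the same pathway were higher or not called. Of 10 receptor genes 9 were tested and 2 were higher, beside 8.09% of all genes. Tgfbr2 stood at 402 and 362 TPM in STAB2-low against 176 and 163 in STAB2-high (log2 1.17 ± 0.10, adjusted p = 0.00042), and Acvrl1 (ALK1, the endothelial receptor for BMP9) at 65.4 and 65.8 TPM in STAB2-low against 31.5 and 30.0 in STAB2-high (log2 1.07 ± 0.10, adjusted p = 0.00052, but 0.97 under quantile normalization). Of 9 SMAD target and feedback genes 8 were tested and, beside 8.09% of all genes, 3 were higher. These were Bambi, a decoy receptor (15.2 and 17.5 TPM in STAB2-low against 2.11 and 2.22 in STAB2-high, log2 2.46 ± 0.22, adjusted p = 0.00054), Id2, a helix-loop-helix inhibitor (193 and 149 TPM in STAB2-low against 49.7 and 38.2 in STAB2-high, log2 1.93 ± 0.17, adjusted p = 0.00047), and Smad6, an inhibitory SMAD (314 and 271 TPM in STAB2-low against 109 and 88.3 in STAB2-high, log2 1.56 ± 0.14, adjusted p = 0.00051).

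Wnt pathway genes were higher in 6 of 21, with 12 tested and 0 lower, beside 8.09% of all genes higher and 5.54% lower. Besides Rspo3 and Wnt9b, Rnf43, a ubiquitin ligase that removes Wnt receptors, had 10.7 and 8.33 TPM in STAB2-low against 0 and 0 in STAB2-high, at least 117-fold higher against the floor of 3 reads per library. Apcdd1, a Wnt inhibitor at the membrane, had 12.3 and 16.6 TPM in STAB2-low, 1.93 and 3.80 in STAB2-intermediate and 0.668 and 0.584 in STAB2-high (log2 3.24 ± 0.32, adjusted p = 0.00073), and the receptor gene Fzd6 88.4 and 99.4 TPM in STAB2-low against 24.2 and 20.1 in STAB2-high. Axin2, a Wnt target and feedback gene, was the sixth (7.38 and 4.01 TPM in STAB2-low against 0.631 and 1.32 in STAB2-high, log2 1.74 ± 0.39, adjusted p = 0.019). Its call was lost under quantile normalization (adjusted p = 0.053) and without STAB2-low A (0.078) or STAB2-high A (0.081). Wnt4, Wnt5a, Wnt11 and Rspo1 were under the filter, each below 1.5 TPM in every library.

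The Wnt9b and Bmp4 promoters are shown because these ligand genes had low levels in STAB2-high and rose in STAB2-low, and their starts in the authors' table match the RefSeq start sites. They are from RefSeq (GRCm38.p6), Wnt9b at chr11:103749772-103750071, - strand and Bmp4 at chr14:46390620-46390919, - strand, cut as for Clec4g.
Wnt9b: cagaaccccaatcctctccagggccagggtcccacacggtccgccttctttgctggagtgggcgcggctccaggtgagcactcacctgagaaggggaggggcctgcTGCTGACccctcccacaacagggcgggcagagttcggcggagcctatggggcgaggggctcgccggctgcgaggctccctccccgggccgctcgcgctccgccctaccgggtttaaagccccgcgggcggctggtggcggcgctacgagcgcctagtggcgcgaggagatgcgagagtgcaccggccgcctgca
Bmp4: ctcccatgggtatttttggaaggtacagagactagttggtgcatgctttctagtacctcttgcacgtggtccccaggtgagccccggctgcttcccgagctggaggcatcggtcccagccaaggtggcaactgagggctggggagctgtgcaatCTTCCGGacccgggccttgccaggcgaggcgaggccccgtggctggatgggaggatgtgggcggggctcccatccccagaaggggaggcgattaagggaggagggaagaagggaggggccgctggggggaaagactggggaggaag
Capitals in Wnt9b mark TGCTGAC, letters bound by MAF factors, whose first base lies 144 bases before the start, and in Bmp4 CTTCCGG, the ETS letters CCGGAAG on the opposite strand, 96 bases before it. Searched on both strands, TGCTGAC was in 4.4% of all promoters, 3.2% of those of genes higher and 5.8% of those of genes lower in STAB2-low. CCGGAAG was in 11.9%, 8.4% and 8.9%. TGAGTCA, the AP-1 letters, was in 4.8%, 4.9% and 4.2% and in none of the 3 promoters printed. These 4 motifs do not overlap one another in the sequences printed.

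VEGF, angiopoietin, apelin and ephrin genes were higher in 5 and lower in 2 of 17, with 14 tested. The shares over all genes were 8.09% and 5.54%. Apln and Efnb1, both higher, are also in the large-vessel list. Vegfc, the ligand of Flt4, stood at 117 and 168 TPM in STAB2-low, 24.2 and 59.7 in STAB2-intermediate and 4.61 and 9.45 in STAB2-high (log2 4.21 ± 0.46, adjusted p = 0.0011), while Flt4 itself fell to 182 and 162 TPM in STAB2-low against 878 and 775 in STAB2-high (log2 -2.26 ± 0.13, adjusted p = 0.00011). Epha4 had 14.3 and 13.7 TPM in STAB2-low against 0.129 and 0.185 in STAB2-high (log2 3.70 ± 0.38, adjusted p = 0.0008), Apln, the apelin gene of sprouting endothelium, 8.27 and 15.7 TPM in STAB2-low against 1.63 and 1.11 in STAB2-high (log2 2.40 ± 0.36, adjusted p = 0.0035), and Efnb1 297 and 377 TPM in STAB2-low against 91.4 and 82.1 in STAB2-high (log2 1.94 ± 0.17, adjusted p = 0.00044). The fifth gene called higher, the venous ephrin receptor gene Ephb4 (log2 1.09 ± 0.17), and the second called lower, Vegfb (log2 -1.05 ± 0.22), were called but were under 2-fold without STAB2-low A (0.92 and -0.82) or STAB2-high B (0.91 and -0.84). Angpt2, the antagonist-type ligand of Tek, fell, with 1.54 and 0.926 TPM in STAB2-low, 12.6 and 11.3 in STAB2-intermediate and 15.1 and 12.4 in STAB2-high (log2 -2.73 ± 0.23, adjusted p = 0.00037).

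Signals that act on macrophages and hepatocytes changed in both directions. Of 11 niche and growth signal genes 9 were tested, 1 was higher and 2 lower (4 lower under quantile normalization). The shares over all genes were 8.09% higher and 5.54% lower, so the higher count is near its background. Hgf, the hepatocyte growth factor, fell, with 8.85 and 5.59 TPM in STAB2-low, 108 and 53.5 in STAB2-intermediate and 116 and 62.1 in STAB2-high (log2 -3.42 ± 0.41, adjusted p = 0.0016), Bmp6 being the other gene that fell, and its level followed the number within each sort, with A above B. Csf1, the growth factor of macrophages, stood at 36.9 and 33.6 TPM in STAB2-low, 61.6 and 58.6 in STAB2-intermediate and 64.8 and 67.2 in STAB2-high (log2 -0.89 ± 0.10, adjusted p = 0.0012), under the 2-fold limit in TPM and at it under quantile normalization (-1.002). Il33, an alarmin, rose, with 116 and 121 TPM in STAB2-low, 25.5 and 47.3 in STAB2-intermediate and 15.3 and 25.1 in STAB2-high (log2 2.54 ± 0.32, adjusted p = 0.0018). Il34 (0.311 and 0.339 TPM in STAB2-low against 1.95 and 3.02 in STAB2-high) and Il6 (0.0790 and 0 TPM in STAB2-low against 0 and 0 in STAB2-high) were under the filter.

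Leukocyte adhesion and chemokine genes were higher in 7 and lower in 1 of 19, with 15 tested. The shares over all genes were 8.09% and 5.54%. Among those higher, Sele is also in the large-vessel list and Selp in the central vein list. Ackr3, a scavenger receptor for CXCL12, had 74.5 and 62.9 TPM in STAB2-low against 2.75 and 7.45 in STAB2-high (log2 3.63 ± 0.36, adjusted p = 0.00074), Jam2, a junction adhesion molecule, 1795 and 1568 TPM in STAB2-low against 309.7 and 315 in STAB2-high (log2 2.42 ± 0.15, adjusted p = 0.00015), and Icam1, which arrests leukocytes, 207 and 138 TPM in STAB2-low against 60.8 and 60.6 in STAB2-high (log2 1.46 ± 0.19, adjusted p = 0.0019). Cxcl9, a T cell chemokine induced by interferon-gamma, fell, with 11.6 and 9.15 TPM in STAB2-low, 65.6 and 79.8 in STAB2-intermediate and 103 and 119 in STAB2-high (log2 -3.30 ± 0.16, adjusted p = 7.9e-05). Selectins and Cxcl9 thus pointed in opposite directions.

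**Figure D5:**
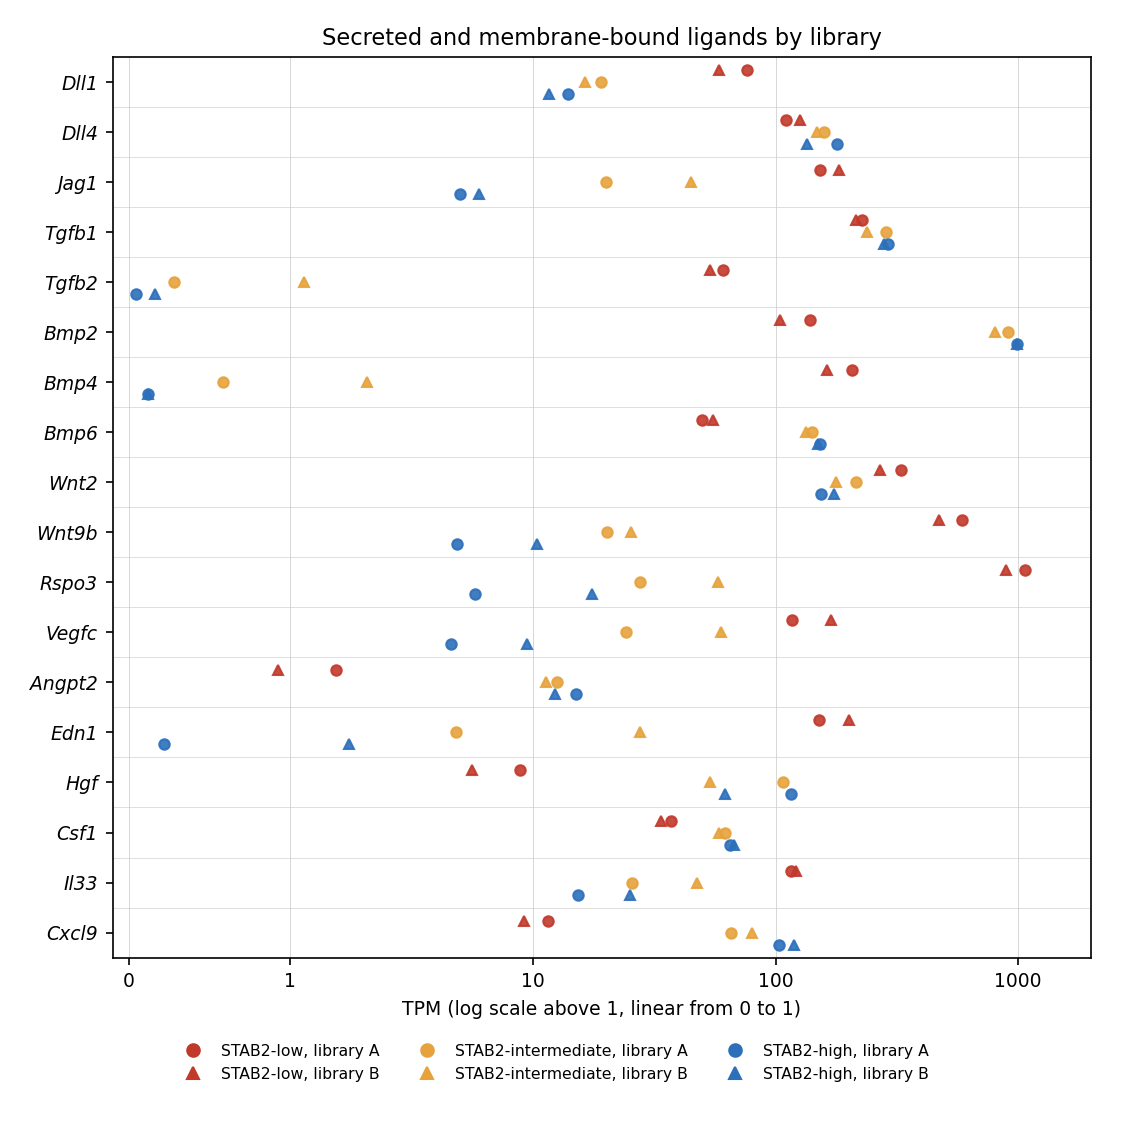
TPM of 18 ligand genes in each of the 6 libraries (horizontal axis, logarithmic above 1 TPM and linear from 0 to 1), with sorts colored as in the key, circles for A and triangles for B. Dll1, Jag1, Tgfb2, Bmp4, Wnt9b, Rspo3, Vegfc, Edn1 and Il33 lie furthest right in STAB2-low, Bmp2, Bmp6, Angpt2, Hgf and Cxcl9 lie furthest left there, and Dll4 and Tgfb1 lie close together in all sorts.

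Genes of vascular tone were higher in 9 and lower in 1 of 18, with 16 tested. The shares over all genes were 8.09% and 5.54%. Among those higher, Edn1 and Plvap are also in the large-vessel list. Edn1, the vasoconstrictor endothelin, stood at 151.2 and 200.1 TPM in STAB2-low, 4.83 and 27.5 in STAB2-intermediate and 0.219 and 1.75 in STAB2-high (log2 6.58 ± 0.73, adjusted p = 0.0011), and its receptor gene Ednrb had 522 and 632 TPM in STAB2-low, 111 and 236 in STAB2-intermediate and 24.5 and 22.7 in STAB2-high (log2 4.55 ± 0.32, adjusted p = 0.00022). Npr3, which clears natriuretic peptides, had 60.9 and 84.0 TPM in STAB2-low against 0.0170 and 0.219 in STAB2-high (log2 6.03 ± 0.49, adjusted p = 0.00034), and Ace, which makes angiotensin II, 94.9 and 103 TPM in STAB2-low, 5.40 and 15.01 in STAB2-intermediate and 1.20 and 1.38 in STAB2-high (log2 5.45 ± 0.39, adjusted p = 0.00024). Nos3, the endothelial nitric oxide synthase, rose less, to 241 and 229.7 TPM in STAB2-low against 103 and 115 in STAB2-high (log2 1.10 ± 0.10, adjusted p = 0.00045). Adm, the vasodilator adrenomedullin, was the 1 gene that fell (7.56 and 10.2 TPM in STAB2-low against 45.1 and 74.8 in STAB2-high, log2 -2.60 ± 0.30, adjusted p = 0.0014).

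Coagulation genes were higher in 5 and lower in 1 of 13, with 9 tested, beside 8.09% and 5.54% of all genes. Among those higher, Vwf is also in the large-vessel list and Thbd in the central vein list. Entpd1, the ectonucleotidase CD39 that limits platelet activation, stood at 408 and 361 TPM in STAB2-low, 8.25 and 15.4 in STAB2-intermediate and 3.02 and 4.45 in STAB2-high (log2 6.36 ± 0.28, adjusted p = 7.0e-05). Plat, the tissue plasminogen activator, had 28.7 and 38.8 TPM in STAB2-low against 0.459 and 0.229 in STAB2-high (log2 4.68 ± 0.41, adjusted p = 0.00047), and the anticoagulant receptor gene Thbd 768 and 928 TPM in STAB2-low, 188 and 312 in STAB2-intermediate and 116 and 189 in STAB2-high (log2 2.51 ± 0.30, adjusted p = 0.0015). Procr, the protein C receptor gene, had 18.1 and 17.3 TPM in STAB2-low against 3.58 and 4.35 in STAB2-high. Tfpi, the inhibitor of tissue factor, fell to 103 and 91.3 TPM in STAB2-low against 327 and 304 in STAB2-high (log2 -1.69 ± 0.10, adjusted p = 0.00013). F3, the tissue factor gene itself, was at 0 in these 4 libraries.

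Matrix genes were higher in 10 and lower in 1 of 24, with 20 tested, beside 8.09% and 5.54% of all genes. Among those higher, Fbln2, Eln, Mgp and Bgn are also in the large-vessel list. After Fbln2, Eln and Mgp the largest log2 differences were those of Fbln5 and Fbn1, both of elastic fibers. Fbln5 stood at 51.5 and 56.0 TPM in STAB2-low, 0.485 and 1.36 in STAB2-intermediate and 0 and 0.0990 in STAB2-high (log2 5.70 ± 0.30, adjusted p = 8.4e-05), and Fbn1, fibrillin-1, at 57.4 and 61.1 TPM in STAB2-low, 10.7 and 18.2 in STAB2-intermediate and 3.97 and 5.62 in STAB2-high (log2 3.39 ± 0.26, adjusted p = 0.0003). Sparc, a collagen-binding protein, was the 1 gene that fell (425 and 518 TPM in STAB2-low against 1092 and 1093 in STAB2-high, log2 -1.22 ± 0.12, adjusted p = 0.00073). The main basement membrane collagens were not called, with Col4a1 at 322 and 318 TPM in STAB2-low against 420.4 and 400.2 in STAB2-high and Col4a2 at 175 and 190.5 TPM in STAB2-low against 258 and 249 in STAB2-high. Of 10 lipid-handling genes 7 were tested and 2 were higher, beside 8.09% of all genes. These were the fatty acid carrier Fabp4 (1686 and 1713 TPM in STAB2-low, 607 and 936 in STAB2-intermediate and 273 and 474 in STAB2-high, log2 2.24 ± 0.29, adjusted p = 0.0021) and the cholesterol exporter Abca1 (66.9 and 43.5 TPM in STAB2-low against 23.5 and 15.3 in STAB2-high, log2 1.46 ± 0.26, adjusted p = 0.0077).

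Cell cycle genes were lower. Of 18 listed, 15 were tested, and 9 were lower, beside 5.54% of all genes, and 0 higher. The median log2 difference was -1.39. Mki67, the proliferation mark Ki-67, stood at 0.847 and 1.35 TPM in STAB2-low, 7.93 and 6.94 in STAB2-intermediate and 18.0 and 15.7 in STAB2-high (log2 -3.09 ± 0.22, adjusted p = 0.00024). Top2a, a topoisomerase of dividing cells, had 1.87 and 1.81 TPM in STAB2-low, 11.4 and 9.33 in STAB2-intermediate and 22.5 and 22.9 in STAB2-high (log2 -3.06 ± 0.18, adjusted p = 0.00011), and Ccna2, cyclin A2, 3.28 and 0.942 TPM in STAB2-low, 10.99 and 10.9 in STAB2-intermediate and 22.5 and 20.7 in STAB2-high (log2 -2.97 ± 0.35, adjusted p = 0.0015). Birc5, survivin, had 0.0930 and 0 TPM in STAB2-low against 10.0 and 6.75 in STAB2-high, or 1 read against 139, a ratio of high to low of 162 (28.6 to 6450). Levels were low in every sort, and STAB2-intermediate lay between the others in Mki67, Top2a and Ccna2. The replication gene Pcna was not called, at 23.9 and 33.5 TPM in STAB2-low against 31.4 and 36.8 in STAB2-high.

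The 7 immediate-early genes called higher were led by Ier3, Fosb, Egr1 and Fos. Fos stood at 409 and 429.9 TPM in STAB2-low, 145 and 237 in STAB2-intermediate and 31.97 and 84.5 in STAB2-high (log2 2.98 ± 0.43, adjusted p = 0.0033), Egr1 had 352 and 366 TPM in STAB2-low, 78.1 and 169 in STAB2-intermediate and 22.9 and 67.9 in STAB2-high (log2 3.15 ± 0.53, adjusted p = 0.0057), and Ier3 139 and 157 TPM in STAB2-low, 40.9 and 55.2 in STAB2-intermediate and 7.62 and 12.0 in STAB2-high (log2 3.81 ± 0.23, adjusted p = 0.00013). Fosb had 36.6 and 57.8 TPM in STAB2-low against 2.47 and 4.39 in STAB2-high (log2 3.44 ± 0.40, adjusted p = 0.0013). In each of them B lay above A within every sort. The heat shock gene Hspa1b was not called, at 15.9 and 31.6 TPM in STAB2-low against 7.43 and 22.2 in STAB2-high.

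Of 14 interferon response genes 13 were tested, 1 was higher and 2 lower, beside 8.09% and 5.54% of all genes. Rsad2, viperin, fell to 17.8 and 17.8 TPM in STAB2-low against 71.3 and 63.0 in STAB2-high (log2 -1.86 ± 0.11, adjusted p = 0.00011), and Ifit2 to 17.3 and 16.2 TPM in STAB2-low against 42.8 and 37.8 in STAB2-high (log2 -1.22 ± 0.13, adjusted p = 0.0011), while Ifit3 stood at 31.7 and 27.4 TPM in STAB2-low against 26.5 and 28.0 in STAB2-high. Gbp2, a guanylate-binding protein, was called higher (96.6 and 96.3 TPM in STAB2-low against 41.9 and 52.4 in STAB2-high, log2 1.03 ± 0.14, adjusted p = 0.0025), but not under quantile normalization (0.94) or without STAB2-high A (0.87). Of 8 MHC class II genes 4 were tested and limma called 0, beside 13.6% of all genes. In this list 1 had an adjusted p below 0.05, 2 had an unadjusted p below 0.05 and 1 was called by limma-voom on recovered reads. That gene, H2-Eb1, stood at 12.1 and 13.6 TPM in STAB2-low against 4.63 and 8.20 in STAB2-high (log2 0.94 ± 0.28, adjusted p = 0.043), and it was also called with a pseudocount of 0.25 TPM (1.03) and without STAB2-high B (1.30). Cd74, the invariant chain, had the highest level, at 46.4 and 60.1 TPM in STAB2-low against 36.5 and 74.4 in STAB2-high.

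Where the STAB2-intermediate libraries stood was described over the called genes, with no test. On the log2 scale, with STAB2-high at 0% and STAB2-low at 100%, the median position over the 856 higher genes was 11.6% for library A and 22.6% for library B. Over the 586 lower genes it was 11.1% for A and 18.4% for B. On the linear TPM scale the medians were 4.1% and 10.2% for higher genes, and 18.7% and 30.1% for lower genes. By these medians STAB2-intermediate was nearer to STAB2-high on both scales, and B was further toward STAB2-low than A. STAB2-intermediate and STAB2-high also share a header code that STAB2-low lacks, so their closeness and the code cannot be told apart. Single genes spread widely around these medians. On the TPM scale, Vwf stood 1.1% and 4.5% of the way, Bmp4 0.2% and 1.1%, Jag1 8.9% and 24.3%, and Ly6a 14.6% and 49.6%. Of genes that fell, Adam23 stood 10.9% and 8.2% of the way, Stab2 14.5% and 29.2%, Mki67 56.6% and 62.9%, and Scgb3a1 79.5% and 75%.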

How the data were processed

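RNA-seq (poly(A), strand-marking kit) was used from 6 libraries of sorted mouse liver cells, 3 sorts of 2. The values are TPM in a table the authors deposited, made with HOMER on mm10 exons, condensed to 1 transcript a gene, per the file header, which states no strand setting. Reads from overlapping genes on opposite strands therefore cannot be told apart. STAR is named in the submitters' processing notes, with no version. TPM columns summed to 520681 to 523126. Low values were whole multiples of 1 read (within 0.1 read, in 100% of values up to 20 reads), so reads were recovered for depth, counting intervals and 1 alternative. The header also names 3 Kupffer cell libraries, not analysed here.

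From TPM, log2(TPM + 1) was fitted with limma 3.58.1 (R 4.3.3, trend with the mean, 6 libraries, a mean per sort), for genes that reached 4 TPM in 2 or more, with Benjamini-Hochberg adjustment over all tested. The code was tested on simulated data. Other steps used Python 3.11.15. No 2 libraries were identical. A call was an adjusted p below 0.05 and a 2-fold change. Counting intervals (95%, exact) and floors cover counting error only. Alternatives were a pseudocount of 0.25, no filter or 1 TPM, quantile normalization, 4 libraries, a replicate block, limma-voom on recovered reads, no fold limit and leaving out each library.

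Named genes were Stab2, the 12 largest called differences in each direction (no overlap, the higher sort's mean 10 TPM or more, unnamed transcripts passed over), the 8 most abundant of each sort, up to 4 called members of each of 35 lists and all Notch members. Some members that this rule names are not reported here. Other members named, among them uncalled ones, were chosen after their values were seen. The members and lists were chosen with earlier results of these data known.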

Additional observations from a re-analysis of the deposited data

How the results depend on the processing

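The 1442 calls numbered 1402 to 1808 under the other settings of pseudocount, filter, scaling, library set, replicate block and limma-voom, and 3141 with no fold limit, since those include changes under 2-fold. Leaving out 1 library gave 1295 to 1456 calls in all, 763 to 864 of them higher and 498 to 646 lower. Between 82.4% and 99.8% of the 1442 were called again under each of these 13 settings, and 0 of them turned direction. Quantile normalization gave 739 higher and 699 lower, a higher share of 51.4% in place of 59.4%. Whether the numbers A and B pair the sorts was not settled. Deviations correlated at 0.136, 0.057 and 0.137 over the tested genes, and a weak correlation cannot decide it. On the second principal component (8.6% of the variance) A lay above B in every sort. The values for A and B were 21.6 and -15.6 in STAB2-low, -3.1 and -15.2 in STAB2-intermediate and 19.2 and -7 in STAB2-high. The fit with the replicate block called 1483. Of 133 called genes named, 123 kept call and direction throughout, and the other 10 are given above with the values. Uncalled genes that turned sign did so as follows, and the cause was not tested. Under quantile normalization log2 differences were 1.00 for B2m, 0.40 for Aqp1, -0.018 for Psen2, -0.080 for Cd74. With limma-voom on recovered reads log2 differences were -0.017 for Itm2b, -0.016 for Cdh5, -0.019 for Cd74. Leaving out 1 library at a time moved them over -0.31 to 0.10 for Aqp1, -0.017 to 0.032 for Itm2b, -0.084 to 0.098 for Cdh5, -0.0085 to 0.11 for Psen2, -0.11 to 0.050 for Aph1a, -0.15 to 0.10 for Mfng, -0.48 to 0.52 for Cd74. With 2 libraries a sort, leaving out 1 assumes that the lone library varies like the others. TPM rests on 13920849 to 18944276 reads a library, and the 187 higher genes under 1 TPM in STAB2-high rest on few reads there.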

Other observations

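Several gene families outside the lists above were chosen after their values were seen, and are given as values with no test of the family. Their counts follow in part from that choice. The caveolar and EHD genes, which shape membrane pits and recycle cargo, had 6 of 9 tested higher and 1 lower in STAB2-low. Over all genes the shares were 8.09% higher and 5.54% lower. Ehd2, which sits at the caveolar neck, stood at 114 and 138 TPM in STAB2-low against 0.191 and 0.458 in STAB2-high (log2 6.58 ± 0.49, adjusted p = 0.00027), and Ehd4 at 192 and 234 TPM in STAB2-low against 21.8 and 25.8 in STAB2-high (log2 3.11 ± 0.24, adjusted p = 0.0003). Cavin3, a caveolar coat protein, had 30.0 and 63.2 TPM in STAB2-low against 0 and 0 in STAB2-high, at least 136-fold higher against the floor of 3 reads per library. Cav1, the main caveolar protein, had 138 and 130.1 TPM in STAB2-low against 57.7 and 51.1 in STAB2-high (log2 1.29 ± 0.10, adjusted p = 0.00034). Their relative Ehd3, a mark of sinusoidal endothelium, was the 1 that fell. Paralogs of the EHD family thus ran in opposite directions.

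Of genes tied to the aryl hydrocarbon receptor, a sensor of dietary and environmental ligands, 3 of 6 tested were higher. The share over all genes was 8.09%. Besides Cyp1a1, the cytochrome gene Cyp1b1 stood at 129.8 and 69.1 TPM in STAB2-low, 0.199 and 0.178 in STAB2-intermediate and 0 and 0 in STAB2-high, at least 1459-fold higher in STAB2-low than in STAB2-high, and Nqo1, a quinone reductase, at 65.5 and 79.6 TPM in STAB2-low against 5.58 and 10.0 in STAB2-high (log2 3.10 ± 0.29, adjusted p = 0.00056). The metal-binding metallothionein genes were lower, with Mt1 at 28.1 and 19.9 TPM in STAB2-low, 268 and 248 in STAB2-intermediate and 215 and 329 in STAB2-high (log2 -3.44 ± 0.23, adjusted p = 0.00019) and Mt2 at 5.54 and 8.95 TPM in STAB2-low, 70.1 and 77.3 in STAB2-intermediate and 52.2 and 105 in STAB2-high (log2 -3.22 ± 0.34, adjusted p = 0.00091), and Mt3 and Mt4 were at 0 in the STAB2-low and STAB2-high libraries.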
